A study of Pomacea canaliculata with 34 samples.

Results

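The step from Stage 9 to Stage 10 of embryonic development in the apple snail Pomacea canaliculata was described from the 4 libraries of each stage, 8 of the 34 libraries in the series. Libraries were put into stages by the developmental stage and the numbered title in their labels. The series follows polyadenylated RNA of whole animals over 10 points, Stage 2 to Stage 10 and the hatchling, in 3 libraries per stage up to Stage 7 and 4 per later point. Embryos were removed from their eggs before RNA was extracted with Trizol. No treatment or genetic change is named for any group, and the labels give no age in hours or days, no strain, no clutch and no number of embryos per library. Nothing in them says that libraries of a stage came from separate cultures or animals, so the p-values below measure only how far these libraries differed, and that spread may be technical.

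Apple snails lay their eggs above the water line, and the embryo develops directly inside the egg on the fluid stored there, with no free-swimming larva. Late in this period the young snail already carries a shell, a foot and eyes, and it hatches as a crawling juvenile. Messenger RNA of a whole embryo is a sum over all its tissues: a gene can rise because more cells express it or because each cell holds more of its RNA, and in bulk libraries these cannot be told apart. The count table names genes by LOC identifier, and the RefSeq gene table pairs all 21131 of them with protein-coding loci but with no product. Genes are therefore described by level and by change, without functions.

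Between these stages 898 of 17441 tested genes (5.15%) changed at an adjusted p under 0.05 in edgeR's quasi-likelihood test with Benjamini-Hochberg adjustment, 461 upward (2.64%) and 437 downward (2.51%), and 3558 genes had an unadjusted p under 0.05. The changes were small: the median size was 0.56 on the log2 scale, or 1.47-fold, and 656 of the 898 genes changed by less than 2-fold. Among all tested genes the median log2 difference was near 0, at -0.0036. Libraries of the 2 stages were slightly less alike than libraries of 1 stage. The median Spearman correlation over genes was 0.982 between stages, 0.988 within Stage 9 and 0.988 within Stage 10. Pairs ran from 0.9784 to 0.9853 between stages, from 0.9845 to 0.99 within Stage 9 and from 0.9826 to 0.9922 within Stage 10. The median between stages thus lay below every pair within a stage, though the ranges overlapped. The split into rises and falls changed with the scaling of the libraries. Of the calls, 51.3% were rises with TMM factors, 38.4% with RLE size factors, 38.9% in DESeq2 and 72.8% with library totals alone, although the median over all genes moved by less than 0.1 on the log2 scale in each.

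A change was counted as held in all libraries when it met 3 conditions. The gene was called, every library of one stage lay above every library of the other in CPM (counts scaled to library size), and the call was kept when each of the 8 libraries was left out in turn. Of the 898 calls, 763 (85.0% of the calls, 4.37% of the tested genes) showed no overlap between the stages, against 2687 of all 17441 tested genes (15.4%). Only 292 genes (32.5% of the calls, 1.67% of the tested genes) met all 3 conditions. These were 182 rising genes, 39.5% of the rises, and 110 falling genes, 25.2% of the falls. The difference between these shares was not tested.

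Held changes were somewhat larger than called changes in general, with a median size of 0.72 on the log2 scale, or 1.65-fold. Of the 242 calls of 2-fold or more, 187 (77.3%) had stages that did not overlap and 93 (38.4%) were held. For the 656 smaller calls these counts were 576 (87.8%) and 199 (30.3%). Rising held genes numbered 55 at 2-fold or more, 57 between 1.5-fold and 2-fold and 70 below 1.5-fold, and falling held genes 38, 25 and 47. The median read level of the held genes, 16.7 CPM, was close to that of all tested genes, 16.8 CPM.

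**Figure D1:**
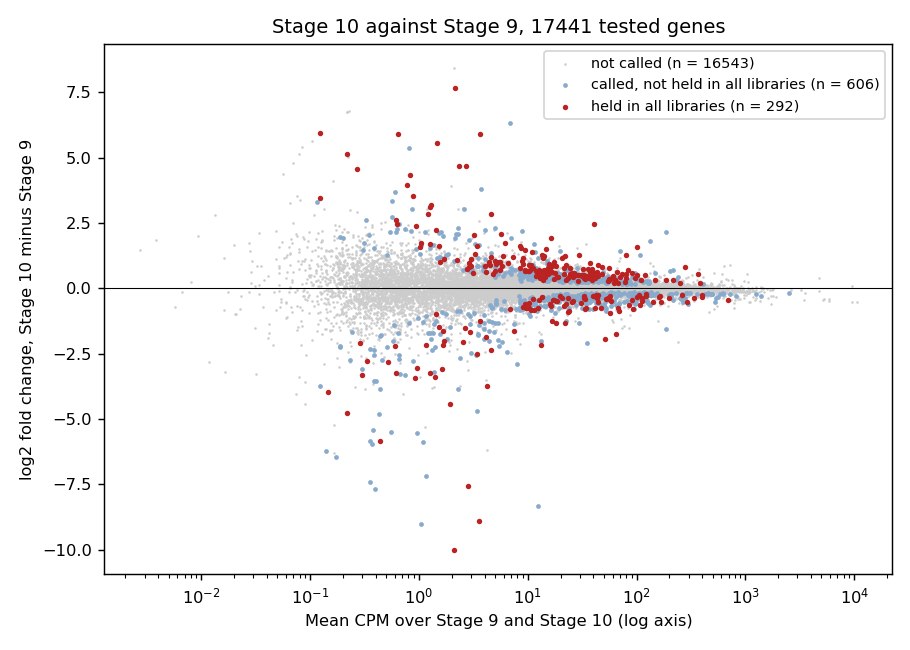
Log2 fold change of Stage 10 over Stage 9 against the mean CPM of the 8 libraries (log axis) for the 17441 tested genes, with the 292 held genes in red, the other called genes in blue and genes that were not called in grey. Held genes run through the range of levels, and many of them lie close to the line of no change.

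Most held genes were also called under other scalings and fits. They had been chosen for calls kept in refits, and the set was not rebuilt under any alternative. All 292 were also called with RLE size factors, 291 with library totals, 291 in DESeq2 and 287 in limma-voom, and 266 were called when the 2 stages were fitted alone. With the 8 libraries thinned to the lowest total among them, 279 were called. A total of 250 held genes, 156 rising and 94 falling, were called in all of 7 alternatives (RLE size factors, library totals, no filter on low counts, 2 stages alone, limma-voom, DESeq2 and thinned libraries). For 145 held genes (49.7%) the difference between the stage means also exceeded the range of libraries within each of the 8 other points of the series, on a scale of log2(CPM + 0.5). The same held for 27.3% of called genes and for 1.91% of all tested genes. The fit behind the calls used the spread in all stages, so called and held genes were more likely than others to show this.

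Many of the other calls were lost when 1 library was left out. Each such refit also had fewer libraries in a stage, and the effect of this was not tested. Without replicate 3 of Stage 9 the count of calls was 474, the lowest of the 8, and 465 of the original 898 calls were kept. Without replicate 4 of Stage 10 it was 492, without replicate 1 of Stage 10 it was 494, without replicate 2 of Stage 9 it was 525, without replicate 3 of Stage 10 it was 561 and without replicate 4 of Stage 9 it was 586. Leaving out replicate 1 of Stage 9 gave 848 calls, and leaving out replicate 2 of Stage 10 gave 1016, but 209 and 178 of the 898 original calls were lost there, with 689 and 720 kept. Of 135 calls whose stages overlapped, 132 separated once 1 library was left out. The counts were highest without replicate 2 of Stage 10, at 68, and without replicate 1 of Stage 9, at 44. A call could count under more than 1 library.

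**Figure D2:**
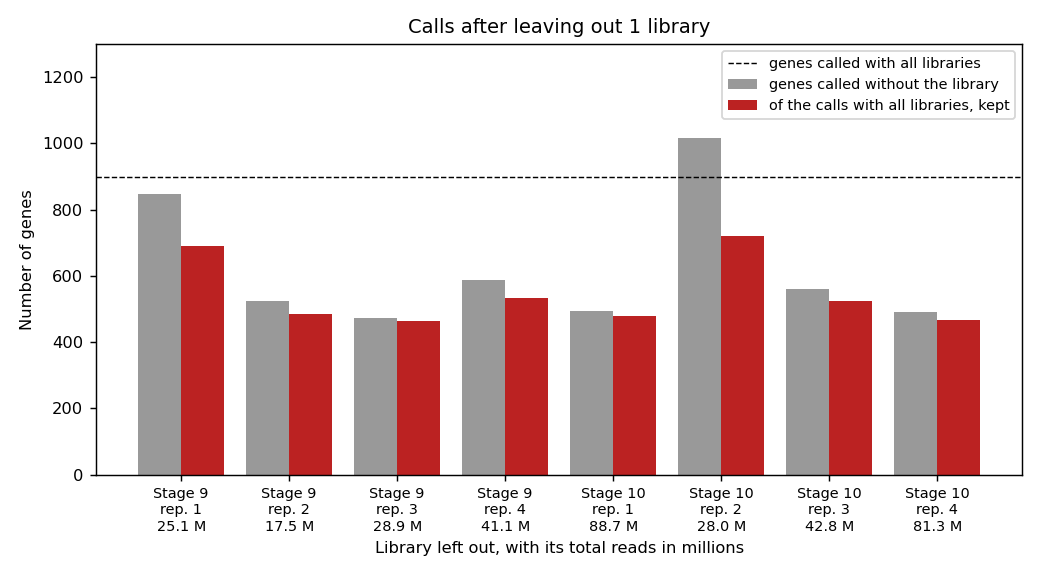
Number of genes called after each of the 8 libraries was left out in turn (grey bars) and how many of the 898 original calls were among them (red bars), with the total reads of the left-out library under its name. The grey bars run from 474 to 1016, and only the bar without replicate 2 of Stage 10 stands above the dashed line at 898.

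Depth differed between the stages. Stage 9 libraries held 25136083, 17466424, 28947235 and 41110722 reads in genes, and Stage 10 libraries 88674538, 27995708, 42803711 and 81315202. With the libraries thinned to 17466424 reads the count of calls was 895. Leaving out the shallowest library of Stage 10, replicate 2, raised the count, while leaving out the shallowest library of Stage 9, also replicate 2, lowered it.

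By the rule for held genes, the stages of each held gene described below do not overlap. Among the held genes that rose, LOC112555712 had the largest change of those above 10 CPM. Stage 9 gave 10.3, 10.1, 13.5 and 15.9 CPM and Stage 10 gave 78.7, 43.7, 78.3 and 76.4 CPM. The stages lay far apart although replicate 2 of Stage 10 stood well below the other three, and the log2 fold change was 2.47 (SE 0.411, edgeR adjusted p = 0.00076). Without that library, or any other of the 8, the log2 fold change lay between 2.39 and 2.63. The gene had been at 31.2 CPM on average at Stage 7, with libraries from 15.6 to 57.4 CPM. At Stage 8 its mean was 10.2 CPM, so its low level at Stage 9 followed an earlier fall. Its mean in the hatchling was 69.5 CPM.

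LOC112555001 was also higher in every library of Stage 10. It measured 8.16, 6.14, 6.09 and 6.98 CPM in the Stage 9 libraries and 31.3, 21.0, 18.4 and 33.97 CPM at Stage 10. All Stage 10 libraries stood above all Stage 9 libraries, in a lower and a higher pair (edgeR adjusted p = 0.00882, log2 fold change 1.93 ± 0.433 SE). Hatchling libraries of this gene ran from 5.59 to 29.2 CPM, from below its Stage 9 level to within its Stage 10 range. Earlier libraries were also widely spread, from 5.99 to 23.75 CPM at Stage 3 and from 5.33 to 20.3 CPM at Stage 4.

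LOC112560711 and LOC112575124 were all but absent from the first stages sampled and climbed from then on. LOC112560711 measured 52.4, 58.7, 32.9 and 60.4 CPM at Stage 9 and 141, 147.9, 174.5 and 146.4 CPM at Stage 10. Its lowest Stage 10 library lay above its highest Stage 9 library by more than the spread within either stage (edgeR adjusted p = 1.98e-05, log2 fold change 1.58 ± 0.193 SE). Stage means of this gene were at most 0.036 CPM from Stage 2 to Stage 6, then 2.30 CPM at Stage 7, 15.6 CPM at Stage 8 and 372.6 ± 120.2 CPM in the hatchling (SD, n = 4). LOC112575124 measured 3.69, 3.42, 5.50 and 4.03 CPM at Stage 9 and 12.4, 11.8, 10.4 and 16.9 CPM at Stage 10. Again no libraries overlapped (edgeR adjusted p = 4.35e-05, log2 fold change 1.63 ± 0.197 SE). From 0.44 CPM at Stage 8 this gene reached 68.8 ± 6.62 CPM in the hatchling (SD, n = 4), a log2 difference of 7.26 in a comparison that shares no library with Stage 9 or Stage 10 (edgeR adjusted p = 2.04e-15).

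LOC112570043 returned to an earlier level. Its values were 4.47, 5.05, 4.09 and 4.35 CPM at Stage 9 and 11.6, 11.3, 14.5 and 14.2 CPM at Stage 10. Within each stage the libraries lay close together and the stages were well apart (edgeR adjusted p = 1.52e-05, log2 fold change 1.53 ± 0.188 SE). Its means were 14.0 CPM at Stage 6 and at Stage 7, 4.47 CPM at Stage 8 and 9.83 CPM in the hatchling. The fall from Stage 7 to Stage 8 was itself called (log2 fold change -1.64, edgeR adjusted p = 1.87e-07).

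LOC112562307 closed the list of largest rises, at 4.69, 7.01, 6.84 and 12.3 CPM at Stage 9 and 26.6, 21.1, 24.1 and 15.5 CPM at Stage 10. Replicate 4 was the highest library of Stage 9 and the lowest of Stage 10, and even so the stages did not overlap (edgeR adjusted p = 0.000266, log2 fold change 1.49 ± 0.228 SE). The rising held genes with most reads changed far less. LOC112571691 rose from 274.7, 307.2, 312.3 and 290.2 CPM to 413.5, 431, 454 and 427 CPM, a 1.46-fold change (edgeR adjusted p = 0.0067, log2 fold change 0.54 ± 0.117 SE), and its hatchling mean was 539.1 CPM. The smallest change of any named gene was that of LOC112558227, whose libraries at 374, 363.5, 356.8 and 339.1 CPM and then at 426.1, 409.5, 402.5 and 406.7 CPM were separated by a 1.15-fold rise (edgeR adjusted p = 0.0107, log2 fold change 0.20 ± 0.0457 SE).

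**Figure D3:**
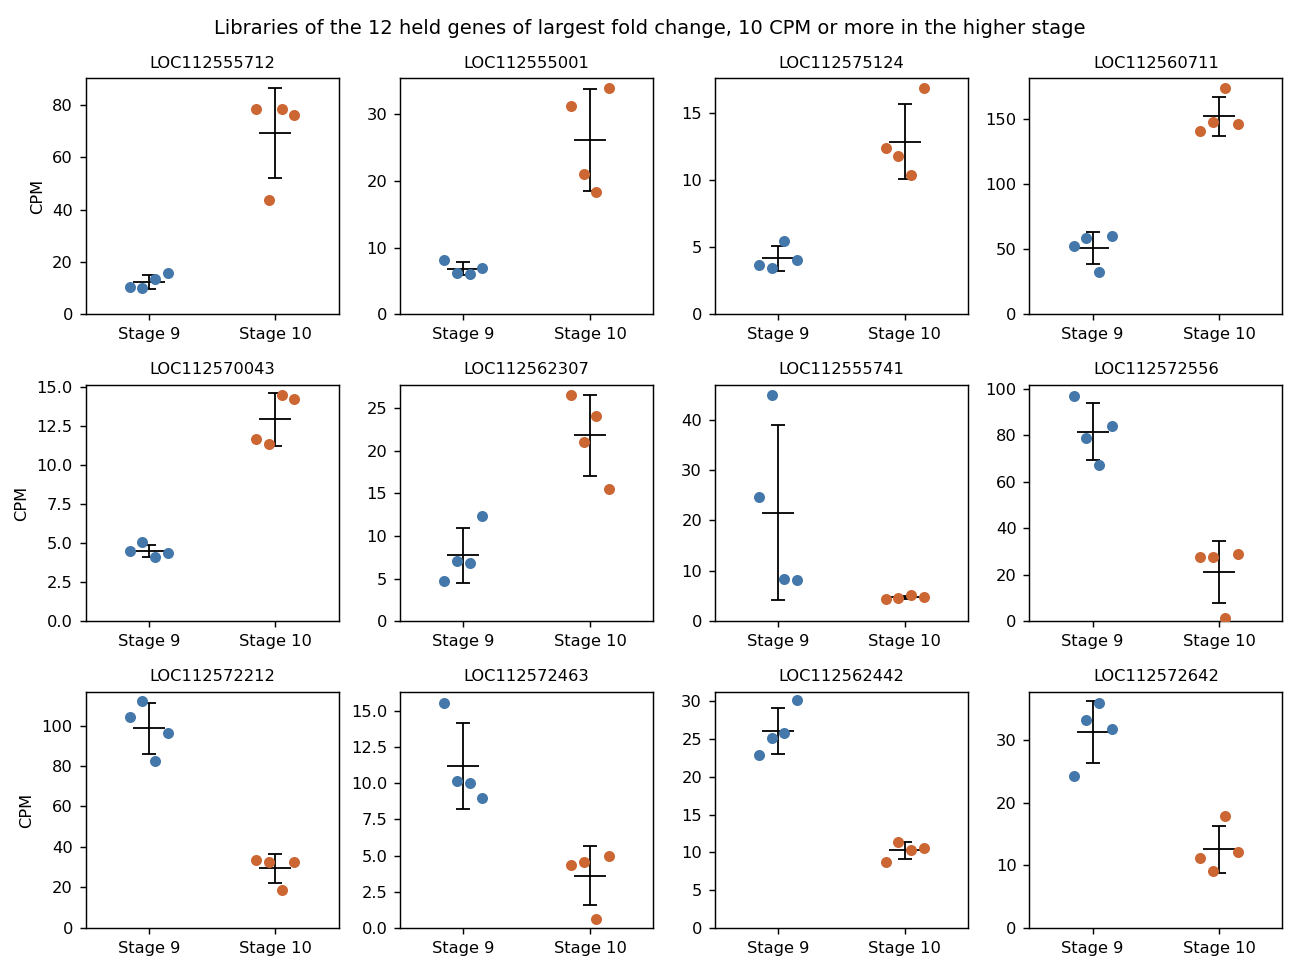
CPM of the 12 held genes of largest fold change whose higher stage had a mean of at least 10 CPM, in each library of Stage 9 (blue) and Stage 10 (orange), each panel on its own linear axis from 0, with the mean (long bar) and the SD (short bars, n = 4). No panel shows an overlap, which the rule for held genes requires. Single libraries stand apart in some, among them 43.7 CPM for LOC112555712 and 1.14 CPM for LOC112572556 at Stage 10.

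The 6 falling held genes of largest fold change among those with 10 CPM or more at Stage 9 had all been called as rising from Stage 7 to Stage 8, with log2 fold changes between 0.50 and 2.21, and each had its highest mean at Stage 8 or Stage 9. The clearest by its error was LOC112562442, with 22.9, 25.2, 25.9 and 30.2 CPM at Stage 9 and 8.69, 11.4, 10.4 and 10.6 CPM at Stage 10. The stages were far apart and each was tight (edgeR adjusted p = 1.21e-06, log2 fold change -1.35 ± 0.138 SE). Its hatchling mean stood at 12.1 CPM, near the level of Stage 10. LOC112572642 took the same course, from 24.3, 33.3, 36.0 and 31.7 CPM to 11.2, 9.13, 17.9 and 12.1 CPM. All 4 libraries of Stage 10 lay below those of Stage 9 (edgeR adjusted p = 0.000544, log2 fold change -1.32 ± 0.212 SE).

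Of the falling held genes with 10 CPM or more at Stage 9, LOC112555741 fell the furthest, but from an uneven start. It measured 24.7, 44.8, 8.38 and 8.15 CPM at Stage 9 and 4.38, 4.53, 5.14 and 4.79 CPM at Stage 10. Stage 9 split into a high and a low pair of libraries while Stage 10 was uniform, and the low pair of Stage 9 still lay above every Stage 10 library (edgeR adjusted p = 0.00385, log2 fold change -2.18 ± 0.438 SE). Leaving out replicate 2 of Stage 9 gave a log2 fold change of -1.54. When the 2 stages were fitted alone the call was lost (edgeR adjusted p = 0.0509).

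3 falling genes shared 1 low library. LOC112572556 measured 96.7, 78.7, 67.1 and 83.8 CPM at Stage 9 and 27.7, 27.4, 1.14 and 28.8 CPM at Stage 10 (edgeR adjusted p = 0.0244, log2 fold change -1.94 ± 0.509 SE). LOC112572212 measured 104.2, 111.9, 82.5 and 96.2 CPM and then 33.4, 32.7, 18.9 and 32.6 CPM (edgeR adjusted p = 0.000936, log2 fold change -1.74 ± 0.295 SE). LOC112572463 measured 15.6, 10.2, 10.0 and 8.95 CPM and then 4.38, 4.53, 0.593 and 4.98 CPM (edgeR adjusted p = 0.0124, log2 fold change -1.62 ± 0.381 SE). In each of them replicate 3 stood well below the other Stage 10 libraries, which were nearly equal to one another, and with that library left out the calls were kept. In the fit of the 2 stages alone, the calls of LOC112572556 (edgeR adjusted p = 0.124) and LOC112572463 (edgeR adjusted p = 0.103) were lost. Hatchling means were 54.3 CPM for LOC112572556, 44.0 CPM for LOC112572212 and 10.1 CPM for LOC112572463. The rise from Stage 10 to the hatchling was called for LOC112572556 (edgeR adjusted p = 0.0353) and LOC112572463 (edgeR adjusted p = 0.00308). It was not called for LOC112572212 (edgeR adjusted p = 0.117).

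The falling held genes with most reads moved little in size. LOC112573474 went from 794.4, 827.8, 799.4 and 789.5 CPM to 553, 651.3, 567.1 and 593.1 CPM (edgeR adjusted p = 0.00636, log2 fold change -0.44 ± 0.0947 SE). LOC112560291 went from 424.1, 455.4, 443.2 and 454.2 CPM to 350.6, 375.6, 332.1 and 342.8 CPM (edgeR adjusted p = 0.00076, log2 fold change -0.34 ± 0.0572 SE). Both had their highest mean at Stage 2, at 1166 and 1785 CPM, and for LOC112560291 each later stage up to Stage 10 had a lower mean than the one before. None of the 16 genes named so far passed a test against a 2-fold minimum, in which the smallest adjusted p was 0.0869, for LOC112555712.

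**Figure D4:**
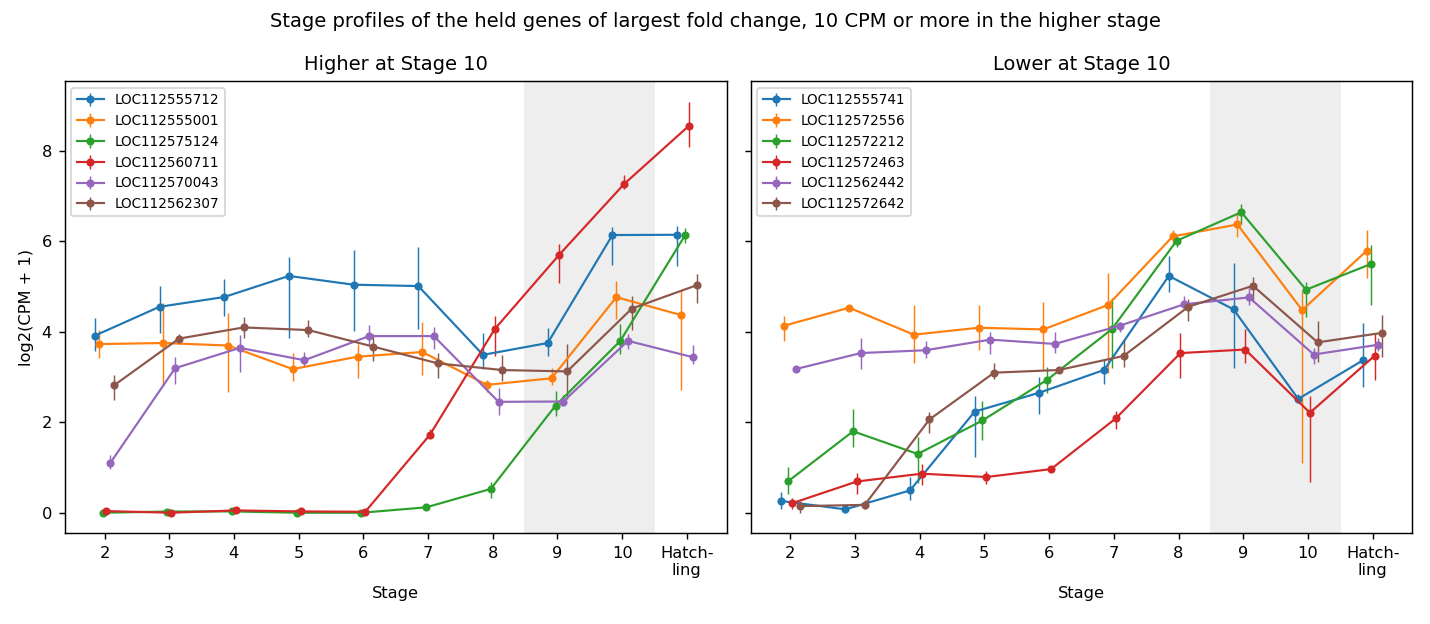
Mean log2(CPM + 1) of the same 12 genes at Stage 2 to Stage 10 and in the hatchling, with bars from the lowest to the highest library and the 2 stages compared shaded. On the left, LOC112560711 and LOC112575124 climb from 0 while the other four had been higher before Stage 8; on the right, all 6 genes climb to Stage 8 or Stage 9 and drop at Stage 10.

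Only 14 genes (0.0803% of the tested genes) passed the test against a 2-fold minimum at an adjusted p under 0.05, 8 rising and 6 falling, all with stage means of at most 13.6 CPM. In 2 of them, LOC112569010 and LOC112569032, the libraries of the stages overlapped, and the 12 that were held had stage means of at most 7.84 CPM. LOC112577090 was steady before its fall: its 22 libraries from Stage 2 to Stage 8 ran from 4.35 to 10.3 CPM, and the Stage 9 values were 10.0, 8.31, 5.07 and 7.94 CPM. At Stage 10 it measured 0.530, 0.702, 0.635 and 0.492 CPM, a drop in every library to a level seen at no earlier stage (edgeR adjusted p against the 2-fold minimum 0.000192, log2 fold change -3.75 ± 0.426 SE). Hatchling libraries lay between 0.608 and 3.49 CPM.

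LOC112568612 fell from 6.30, 6.19, 5.07 and 5.52 CPM to 1.12, 0.671, 1.02 and 1.21 CPM, with both stages tight (edgeR adjusted p against the 2-fold minimum 0.000192, log2 fold change -2.497 ± 0.235 SE). Its hatchling libraries, at 1.99 to 4.54 CPM, lay between those of the 2 stages. LOC112569148 fell from 5.40, 4.56, 7.99 and 10.2 CPM to 0.0102, 0, 0 and 0.0219 CPM, and its hatchling libraries were at most 0.0295 CPM. Such a drop to almost no reads was shared by all 4 Stage 10 libraries, but Stage 8 libraries of the gene had run from 0.203 to 13.2 CPM, so the gene had been nearly absent from single libraries before. LOC112568895 and LOC112565338 fell to at most 0.0639 and 0.254 CPM in any Stage 10 library, from at least 3.11 and 2.68 CPM at Stage 9. Stage 8 libraries of LOC112568895 also ran from 0 to 5.15 CPM.

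Among the rises past 2-fold, LOC112564144 went from 0.107, 0, 0.360 and 0.160 CPM to 3.00, 4.15, 6.03 and 4.72 CPM, and its hatchling libraries ran from 4.76 to 10.3 CPM. LOC112572793 went from 0, 0, 0.164 and 0.0458 CPM to 3.12, 3.48, 2.01 and 2.99 CPM. Both were thus close to 0 in each Stage 9 library and well above it in each Stage 10 library. Neither was new at Stage 10: their highest libraries from Stage 2 to Stage 8 were at 1.10 and 1.39 CPM. Means of LOC112572793 were 0.907 CPM at Stage 4, 0.964 CPM at Stage 7 and 0.0259 CPM at Stage 8. LOC112574462 and LOC112568090 also rose, to between 4.15 and 11.4 CPM and between 1.25 and 8.31 CPM, but their hatchling libraries were widely spread, from 0 to 14.7 CPM and from 0.0972 to 11.5 CPM. LOC112568682 and LOC112558047 rose to 1.09 to 1.49 CPM and 1.87 to 2.55 CPM in the Stage 10 libraries, with hatchling libraries from 0.0299 to 1.39 CPM and from 1.60 to 3.57 CPM, and the remaining held rise, LOC112567553, is one of the genes with no reads at a stage.

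Some genes had no read at all in 1 of the stages. In the whole table, 30 genes had 0 reads in all Stage 9 libraries and reads in every Stage 10 library, and 8 genes the reverse, with 112660464 reads in total at Stage 9 and 240789159 at Stage 10. 7 called genes had 0 reads in a stage, 1 at Stage 9 and 6 at Stage 10, and 2 of them were held. LOC112567553 had 0 reads in all 4 libraries of Stage 9 and also in all 4 of Stage 8, then 22, 11, 5 and 27 reads at Stage 10. Each of the 18 libraries from Stage 2 to Stage 7 held between 15 and 38 reads of it, so its reads were missing at Stages 8 and 9 and came back in small number. Against the limit that a count of 0 allows, 3 reads over the Stage 9 libraries, its Stage 10 level was at least 9.75-fold higher. LOC112553498 had 80, 90, 121 and 217 reads at Stage 9 and 0 in every library of Stage 10, at least 376-fold lower by the same limit over the Stage 10 libraries. Its Stage 8 libraries held 116, 0, 0 and 0 reads, so an absence from whole libraries was not particular to Stage 10. These limits cover counting error only.

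Several of the largest fold changes did not hold in all libraries. The following 4 genes, chosen after their values were seen, are the 2 overlapping calls of largest fold in each direction among those above 10 CPM in the higher stage. LOC112569010 measured 0.179, 0.0543, 0.360 and 0.0687 CPM at Stage 9 and 6.21, 0.0958, 20.8 and 27.1 CPM at Stage 10. Replicate 2 of Stage 10 stayed at the level of Stage 9 (log2 fold change 6.30, edgeR adjusted p = 0.000206), and limma-voom did not call the gene (adjusted p = 0.0632). LOC112573557 showed the same library out of step, with 19.0, 2.27, 15.8 and 21.0 CPM at Stage 10 after a mean of 3.23 ± 0.723 CPM at Stage 9 (SD, n = 4; log2 fold change 2.19, edgeR adjusted p = 0.00334). Its call was lost in the fit of the 2 stages alone (edgeR adjusted p = 0.0596) and in limma-voom (adjusted p = 0.0646).

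The falling pair was split at Stage 9. LOC112565614 measured 0.0358, 0, 52.8 and 46.1 CPM there and at most 0.160 CPM in the Stage 10 libraries. Replicates 1 and 2 of Stage 9 had the level of Stage 10, while the Stage 8 libraries all stood between 114.2 and 145.1 CPM (log2 fold change -8.33, edgeR adjusted p = 0.0135). The gene had been nearly absent from single libraries before. Its lowest libraries were at 0.319, 0.336, 0.666 and 0.198 CPM at Stages 2, 3, 5 and 7. The highest of those stages were at 22.6, 37.6, 212.9 and 141.9 CPM. At Stages 4 and 6 the lowest were at 28.7 and 43.7 CPM. The call of LOC112565614 was lost in limma-voom (adjusted p = 0.626) and, in edgeR, without replicate 1 of Stage 10 (adjusted p = 0.0502) or replicate 4 of Stage 10 (adjusted p = 0.0515). LOC112556997 measured 20.7, 1.58, 12.9 and 21.4 CPM at Stage 9 and 1.87, 2.78, 1.25 and 1.76 CPM at Stage 10, so that replicate 2 of Stage 9 lay among the Stage 10 libraries (log2 fold change -2.90, edgeR adjusted p = 0.0135).

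Rising held genes were often neighbours in the gene order of the RefSeq table. Of the 182, 30 (16.5%) stood next to another rising held gene, whereas 1.83% of all tested genes stood next to one. For the 110 falling held genes the count was 8 (7.27%), against 1.13%. No test was made of these shares, and reads of overlapping or near-identical neighbours cannot be told apart here, since the sources used do not say whether reads were counted by strand. The longest run held 5 genes, LOC112570025, LOC112570107, LOC112566590, LOC112570043 and LOC112570092. Their log2 fold changes were 0.76, 0.99, 0.996, 1.53 and 1.60 in that order.

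Every gene of the run was lower in all Stage 9 libraries than in any Stage 10 library, which the rule for held genes requires. LOC112570025, the first, went from 22.2, 24.1, 27.6 and 21.7 CPM at Stage 9 to 40.3, 32.8, 44.5 and 43.7 CPM at Stage 10 (SE 0.138, edgeR adjusted p = 0.00194). LOC112570107 went from 2.93, 3.80, 4.58 and 3.09 CPM to 6.38, 5.91, 8.47 and 7.86 CPM (SE 0.208, edgeR adjusted p = 0.00531). LOC112570092, the last of the run, went from 1.15, 0.489, 0.458 and 0.893 CPM to 2.46, 2.01, 2.39 and 2.34 CPM (SE 0.296, edgeR adjusted p = 0.00219). By that rule, in each of these 3 genes the lowest Stage 10 library lay above the highest Stage 9 library. 2 places before the run lay another rising held gene, LOC112570126 (log2 fold change 0.57, edgeR adjusted p = 0.00389), and 5 places before it a falling one, LOC112566508 (log2 fold change -0.54). None of the 8 genes that followed the run was called.

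**Figure D5:**
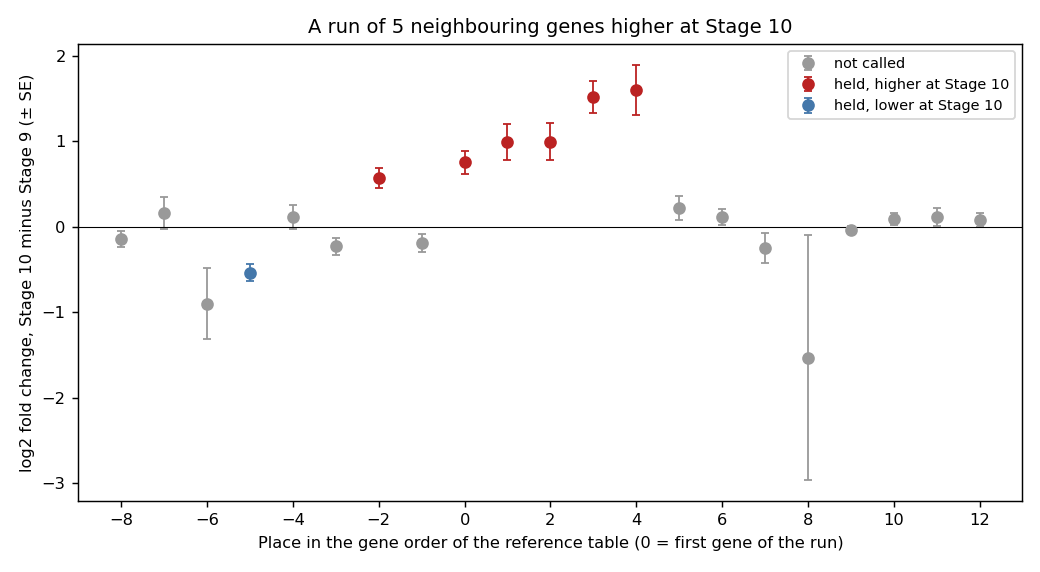
Log2 fold change of Stage 10 over Stage 9 (points, bars ± SE of the edgeR fit) for tested genes by their place in the RefSeq gene order, counted from the first gene of the run. The 5 genes of the run climb from 0.76 to 1.60, and none of the plotted genes after them was called.

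Shorter groups of rising neighbours included LOC112570019, LOC112570385 and LOC112570021, with log2 fold changes of 0.89, 0.83 and 0.48, and the pair LOC112562693 and LOC112561390. LOC112561390 had stages far apart, with 187.3, 216.1, 203.2 and 192.2 CPM at Stage 9 and 347.2, 327, 369.2 and 371.2 CPM at Stage 10 (edgeR adjusted p = 6.80e-06, log2 fold change 0.83 ± 0.0966 SE). The falling pairs included LOC112572556 with LOC112572212, both described above for their low replicate 3. 7 places before the first of them began another falling pair, LOC112572560 and LOC112572561, with log2 fold changes of -1.85 and -2.01. In that pair too replicate 3 was the lowest library of Stage 10, at 0.974 and 0.423 CPM. Not all genes of this stretch shared this. In LOC112572559, the next gene in the order, replicate 3 was the highest library of Stage 10, at 7.16 CPM.

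Held genes had different histories before Stage 9. Of the 182 rising ones, 89 (48.9%) had their highest mean between Stage 2 and Stage 7 and 59 (32.4%) in the hatchling, shares close to those of all tested genes (49.0% and 30.5%). Single stages within that span differed from the background. Only 7 (3.85%) peaked at Stage 2, against 22.3% of all tested genes, and 17 (9.34%) at Stage 6, against 2.96%. Shares were 7.69% at Stage 4, 1.65% at Stage 5 and 7.14% at Stage 7, against 5.37%, 2.49% and 6.72%. The highest mean was at Stage 10 for 34 (18.7%, against 5.96% of all tested genes) and at Stage 3 for 35 (19.2%, against 9.20%). Stage 9 was the lowest point of the whole series for 45 of them (24.7%), against 4.78% of all tested genes, though a gene that rises from Stage 9 is more likely than others to have its lowest point there, and its highest at Stage 10. Of the 110 falling ones, 35 (31.8%) peaked at Stage 9, 34 (30.9%) at Stage 2 and 13 (11.8%) at Stage 8, against 8.91%, 22.3% and 5.63% of all tested genes. For 21 of them (19.1%) Stage 10 was the lowest point, against 3.13% of all tested genes, with the same caution.

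The genes were then followed in comparisons that use no library of Stage 9 or Stage 10. From Stage 7 to Stage 8, where 22.9% of all tested genes rose and 23.2% fell, 100 of the 182 rising held genes (55.0%) fell and 18 (9.89%) rose, with a median log2 change of -0.41. The 110 falling held genes rose in 36 cases (32.7%) and fell in 21 (19.1%), with a median of 0.17. The median over all tested genes was 0.03. From Stage 8 to the hatchling, where 30.9% of all tested genes rose and 30.7% fell, 107 of the rising held genes (58.8%) rose and 18 (9.89%) fell, with a median log2 change of 0.50. The falling held genes fell in 83 cases (75.5%) and rose in 11 (10.0%), with a median of -0.62 against 0.02 over all tested genes. These comparisons share the Stage 8 libraries with each other, and the step from Stage 7 to Stage 8 is also where the number of libraries per stage changes from 3 to 4.

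For all called genes these figures were closer to the background. Of the 461 called rises, 208 (45.1%) had fallen from Stage 7 to Stage 8 and 243 (52.7%) rose from Stage 8 to the hatchling. Of the 437 called falls, 134 (30.7%) had risen from Stage 7 to Stage 8 and 308 (70.5%) fell from Stage 8 to the hatchling.

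Whole libraries of the 2 stages were hard to separate by 1 number. On an axis of log2(CPM + 1) from the mean of Stage 8, set to 0, to the mean of the hatchling, set to 1, Stage 9 libraries lay at 0.361, 0.402, 0.441 and 0.393 and Stage 10 libraries at 0.447, 0.430, 0.444 and 0.541. Replicate 3 of Stage 9 lay above replicate 2 of Stage 10, and replicate 4 of Stage 10 lay furthest along. The difference of the means, 0.0663, did not pass an exact permutation test (two-sided p = 0.0571; 4 libraries against 4 can reach 0.0286), and without replicate 4 of Stage 10 it was 0.0410.

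The number of genes with 10 reads or more at an equal depth of 13392123 reads was 15560 ± 34.02 at Stage 9 and 15623 ± 76.4 at Stage 10 (SD, n = 4 each; exact permutation test, two-sided p = 0.257). The 10 most abundant genes took 6.502%, 7.833%, 8.503% and 7.92% of reads at Stage 9 and 6.46%, 5.96%, 7.05% and 6.57% at Stage 10. The share was lower on average at Stage 10, but replicate 1 of Stage 9 lay among the Stage 10 libraries, and the difference of -1.18 percentage points did not pass the test (exact permutation test, two-sided p = 0.0857).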

How the data were processed

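The authors deposited a table of raw counts, whole numbers of reads per gene for all 34 libraries, made with STAR per the submitters' processing notes; the sources used here give no version, genome build or strand setting, so no coordinates are printed. RefSeq gene order came from a table of the assembly ASM307304v1. Counts were tested in edgeR 4.0.16 (R 4.3.3): genes passing filterByExpr at a minimum count of 10 (17441, with 3690 not tested), TMM factors, 1 coefficient per stage over all 34 libraries, quasi-likelihood F-test, Benjamini-Hochberg adjustment over all tested genes, calls at 0.05. CPM values use TMM library sizes.

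Alternatives were RLE size factors, library totals, no filter, the 2 stages alone with and without a replicate block, DESeq2 1.42.0, limma-voom (limma 3.58.1), a 2-fold minimum (glmTreat), thinned libraries and leaving out each library. Neighbours, the comparison of Stage 8 with Stage 7 and the range within other stages were added after the data were seen. Whole-library measures were compared by exact permutation (SciPy 1.17.1). The fit was tested on simulated data. No library was a copy of another: the chi-square per gene between libraries of a stage was 17.3 to 51.3.

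Named are, in each direction, the 6 held genes of largest log2 fold change (mean of the higher stage 10 CPM or above, and 10 reads or above summed over the lower one) and the 2 held genes of highest CPM; genes outside this rule were chosen after their values were seen. The comparison, the rule and the lists were chosen with earlier results of these data known. Lists by product name could not be applied, since no product names were at hand. Libraries of the 2 stages held 17466424 to 88674538 reads.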

Additional observations from a re-analysis of the deposited data

Results flagged for a closer look

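In 46 groups of 4 libraries, 1 for each named gene or whole-library measure at each stage, the library at one end was compared with the others by Dixon's test at the 95% level, which chance passes in about 1 of 20 groups. It did so in 5, all at Stage 10. LOC112555712 had its lowest library, replicate 2, at 43.71 CPM, with the others between 76.4 and 78.7 CPM. Replicate 3 was the low library of LOC112572556 at 1.143 CPM, of LOC112572212 at 18.91 CPM and of LOC112572463 at 0.5928 CPM; the first pair of these genes stand next to each other in the gene order. On the axis from Stage 8 to the hatchling, replicate 4 was the high library at 0.5414. What set these libraries apart was not tested.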

How the results depend on the processing

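The count of 898 calls was 256 with a replicate block in the fit of the 2 stages alone, 1741 in DESeq2, 2399 in limma-voom, 14 against a 2-fold minimum, and 474 to 1016 when 1 library was left out. Calls without overlap, 763 in all, numbered 239 with the replicate block, 1324, 1572 and 12, and 438 to 960. Deviations of same-numbered libraries correlated at -0.02, -0.01, 0.02 and 0.11, and those of differently numbered libraries at -0.13 to 0.09. So few values cannot decide whether replicate numbers paired the libraries. The block kept 132 of the 292 held genes called, with 3 residual degrees of freedom against 24 in the fit of all stages.

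The share of called rises that also rose from Stage 8 to the hatchling was 45.1% with library totals and 50.3% to 58.7% with 1 library left out, and that of called falls that fell there was 63.9% to 78.0%. Called rises that had fallen from Stage 7 to Stage 8 made up 37.1% with RLE size factors, 38.8% with library totals and 45.2% to 56.3% with 1 library left out. Called falls that had risen there made up 35.9% with library totals and 25.4% to 36.1% with 1 library left out. Called falls next to another called fall, 10.5% in all against 4.33% of all tested genes, made up 4.69% to 13.9% with 1 library left out. The number of called falls ran from 200 to 505 in these refits, which alters how many genes stand next to one. No share of all tested genes is given for them. The cause of these moves was not tested. The balance of rises and falls, 461 to 437, was 407 to 652 with RLE size factors, 678 to 1063 in DESeq2 and 768 to 287 with library totals. For the genes named by rule and the 4 overlapping genes, the call was kept in 303 refits and lost in 35, each in the same direction. Refits of the other genes in the text were not part of this count.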
